A study of Mus musculus with 24 samples.

Results

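The 10 genes described here are core parts of the circadian clock: *Arntl* (also called Bmal1), *Clock*, *Per1*, *Per2*, *Per3*, *Cry1*, *Cry2*, *Nr1d1*, *Nr1d2* and *Dbp*. They were taken by symbol from the 41388 Ensembl genes of the count table, and each symbol matched 1 gene. RNA from a portion of the heart was sequenced from 24 male wild type Balb/c mice, 4 in each of 6 groups, to follow the heart as autoimmune myocarditis developed. EAM (experimental autoimmune myocarditis) mice received SCFA, a supplemented complete Freund's adjuvant, with 100 μg of a cardiac myosin heavy chain peptide in PBS on day 0 and day 7, and PTX (pertussis toxin) on day 0. Control mice received SCFA with PBS on the same days and the same PTX, so every control also carried adjuvant and toxin. Mice were 8 to 10 weeks old when immunized. Hearts were taken on day 10, 15 or 21 (D10, D15 and D21), and the EAM hearts used for RNA were picked, as far as possible, for the presence of inflammation. At D10, however, the paper reports no EAM mouse with raised CD45+ cells (leukocytes) in the heart or raised cardiac troponin I. Mice were kept with 12 h of light a day. No source used here gives the clock time at which each heart was taken. A difference between groups in these genes and a difference in the hour of collection cannot be told apart.

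The clock is a loop of transcription and repression that runs in almost every cell, the cardiomyocyte included. ARNTL and CLOCK pair and switch on genes with an E-box in their promoters, among them the *Per*, *Cry* and *Nr1d* genes and *Dbp*. PER and CRY proteins then repress ARNTL and CLOCK, and the *Nr1d* products (REV-ERBα and REV-ERBβ) repress *Arntl* through a site called RRE. DBP is a transcription factor of the output side that binds D-boxes, which are found in several *Per* genes. Over a normal day *Arntl* RNA is therefore high when *Dbp*, *Per* and *Nr1d1* RNA are low. Glucocorticoid hormones also act directly on *Per1*.

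Short stretches of the start regions are shown because they hold letters of the kind that clock factors bind. RefSeq (GRCm38.p6) start windows of 300 bases, from 250 before to 50 after the start, were found for 9 of the 10 members, and none was found for *Per2*. The motifs searched on both strands were the E-box CACGTG, the related E-prime box CACGTT, the D-box TTATGTAA or TTACGTAA, and the RRE TAGGTCA or TGGGTCA. They were present in 7.15%, 4.68%, 1.06% and 6.45% of all 32851 windows. In the lines that follow the motif is in capitals. A match is a run of letters and not a measured binding site.
Per1 (chr11:69098736-69098835, plus strand, E-box at -166 from the start, inside an intron of a longer *Per1* transcript): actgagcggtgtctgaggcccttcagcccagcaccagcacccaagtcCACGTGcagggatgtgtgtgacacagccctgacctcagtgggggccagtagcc
Cry1 (chr10:85185071-85185170, minus strand, E-prime box at -79 and E-box at -60 from the start): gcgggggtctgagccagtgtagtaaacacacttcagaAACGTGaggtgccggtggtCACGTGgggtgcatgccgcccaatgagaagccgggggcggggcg
Nr1d1 (chr11:98775378-98775477, minus strand, E-prime box at -28 from the start): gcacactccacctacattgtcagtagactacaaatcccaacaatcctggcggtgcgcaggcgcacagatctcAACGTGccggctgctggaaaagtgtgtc
Per3 (chr4:151044793-151044892, minus strand, D-boxes at -205 and -158 from the start): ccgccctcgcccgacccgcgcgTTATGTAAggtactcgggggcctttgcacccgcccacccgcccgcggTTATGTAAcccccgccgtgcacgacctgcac
Arntl (chr7:113207530-113207559, plus strand, RRE 30 bases after the start, in the first exon): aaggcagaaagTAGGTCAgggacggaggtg
*Cry2* held an E-prime box at -166 from its start. No listed motif lay in the windows of *Clock*, *Nr1d2* or *Dbp*. In the *Cry1* and *Nr1d1* lines the E-prime box lies on the other strand and reads AACGTG.

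All 10 members passed the filter on low counts (at least 10 reads in at least 4 hearts) in every comparison. Levels are given as TMM-normalized CPM (reads scaled to the size of each library), and between genes as RPKM, which also divides by exon length. In the D10 controls the highest mean level per length was that of *Nr1d1*, 49.0 ± 6.1 RPKM (SD, n = 4), followed by *Nr1d2* with 31.5 ± 2.0, *Dbp* with 18.9 ± 4.1 and *Per1* with 12.6 ± 3.8. *Clock* (7.40 ± 0.61) and *Cry2* (6.58 ± 0.30) came next, then *Cry1* (4.40 ± 0.71), *Arntl* (3.34 ± 0.19), *Per2* (2.71 ± 0.85) and *Per3* (2.18 ± 0.05). Neighbours in this order that were apart by less than their summed SDs were *Dbp* and *Per1*, *Clock* and *Cry2*, *Arntl* and *Per2*, and *Per2* and *Per3*. The 4 hearts of 1 group ranged most widely for *Dbp* (5.71 times from lowest to highest in D15 EAM) and *Per1* (4.96 times in D15 control). Exons of *Dbp* overlap *Sphk2* on the other strand over 18.0% of their length, and those of *Nr1d1* overlap *Thra* over 8.55%. No source used here says whether reads were counted by strand, so reads in those parts cannot be assigned with certainty.

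Some libraries stand apart. Total counts were between 15814863 and 24980864. The 4 D21 EAM libraries carry another library code in the sample descriptions than the other 20, so library code and EAM cannot be told apart at D21. The summed CPM of 8 cardiomyocyte markers was 18789 in D10 EAM heart 1 and at least 28542 in the other D10 EAM hearts, and its 8 leukocyte markers summed to 2338 against at most 1093. Control heart 1 of D21 stood apart from the other 3 D21 controls in several members.

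**Figure D1:**
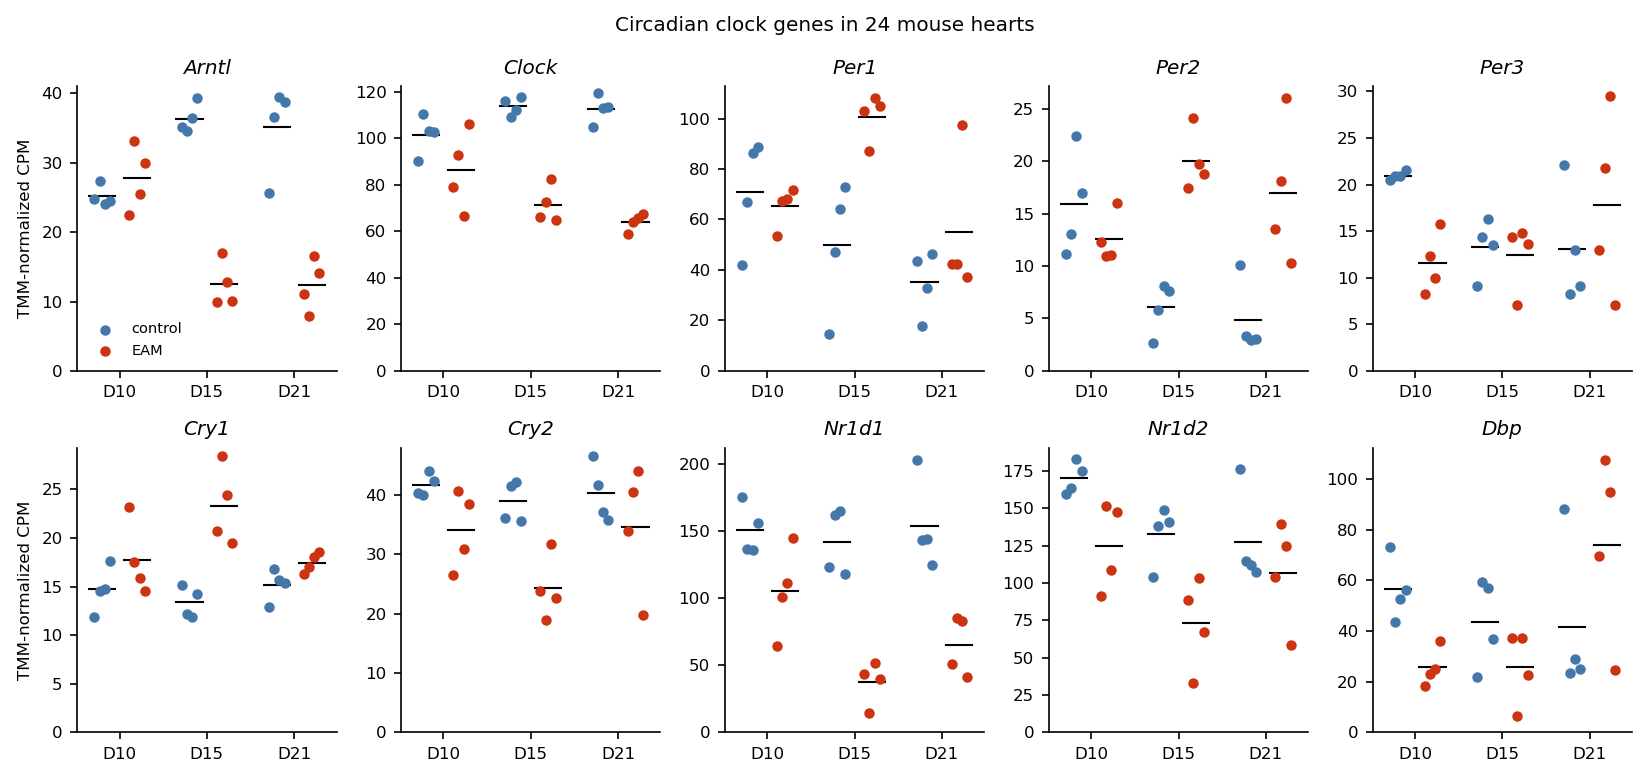
TMM-normalized CPM of each clock gene in each of the 24 hearts, by day, with control hearts in blue and EAM hearts in red; each point is 1 heart, the 4 points of a group are spread sideways in the order of their replicate numbers, and bars are group means. *Arntl* in EAM hearts lies below every control at D15 and D21, and *Per2* lies above every control on both days.

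The first comparison asked how the clock genes stood in EAM hearts at D10. *Dbp* and *Per3* were the members furthest from the controls, and both were lower in every EAM heart than in every control heart. None of the 10 members passed an FDR of 0.01 in edgeR's quasi-likelihood test, where 0% of 15029 genes did. *Dbp* was at 73.1, 43.8, 52.5 and 56.4 CPM in the controls and at 18.2, 23.2, 25.2 and 36.1 CPM in the EAM hearts. Its log2 fold change was -1.15 ± 0.22 (SE), with an adjusted p of 0.302 in edgeR. *Per3*, another gene of the *Per* family, was at 20.5, 20.9, 20.9 and 21.6 CPM in the controls and at 8.26, 12.3, 10.0 and 15.7 CPM in the EAM hearts. The controls lay close together and all above the EAM hearts, with a log2 fold change of -0.87 ± 0.18 and an adjusted p of 0.328. *Nr1d2* was also lower in every EAM heart (91.2 to 152 CPM) than in every control heart (160 to 183 CPM), with a log2 fold change of -0.46 ± 0.16.

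Under an unadjusted limit of 0.05 there were 4 of the 10 members at D10 (*Dbp*, *Per3*, *Nr1d2* and *Nr1d1*), all lower in EAM, beside 15.3% of all genes tested in either direction. The 3 members with every EAM heart below every control compare with 3.75% of all genes, and 0 members had every EAM heart above every control, beside 4.41% of genes. *Nr1d1*, the REV-ERBα gene, was at 64.2, 101, 111 and 145 CPM in EAM hearts and at 136 to 175 CPM in controls, so the groups overlapped. *Arntl* (log2 fold change 0.13 ± 0.12), *Clock* (-0.25 ± 0.14), *Per1* (-0.14 ± 0.22), *Per2* (-0.35 ± 0.23), *Cry1* (0.26 ± 0.17) and *Cry2* (-0.30 ± 0.13) overlapped as well, and *Clock* and *Per1* were at 0.01 and 0.13 when libraries were scaled to cardiomyocyte markers. With DESeq2 the adjusted p was 4.59e-04 for *Dbp* and 0.00276 for *Per3*, and both passed, as did 75 of 15029 genes in all. Without EAM heart 1, whose cardiomyocyte markers were low, the log2 fold changes were -1.01 for *Dbp* and -0.73 for *Per3* (adjusted p = 0.218 for both).

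**Figure D2:**
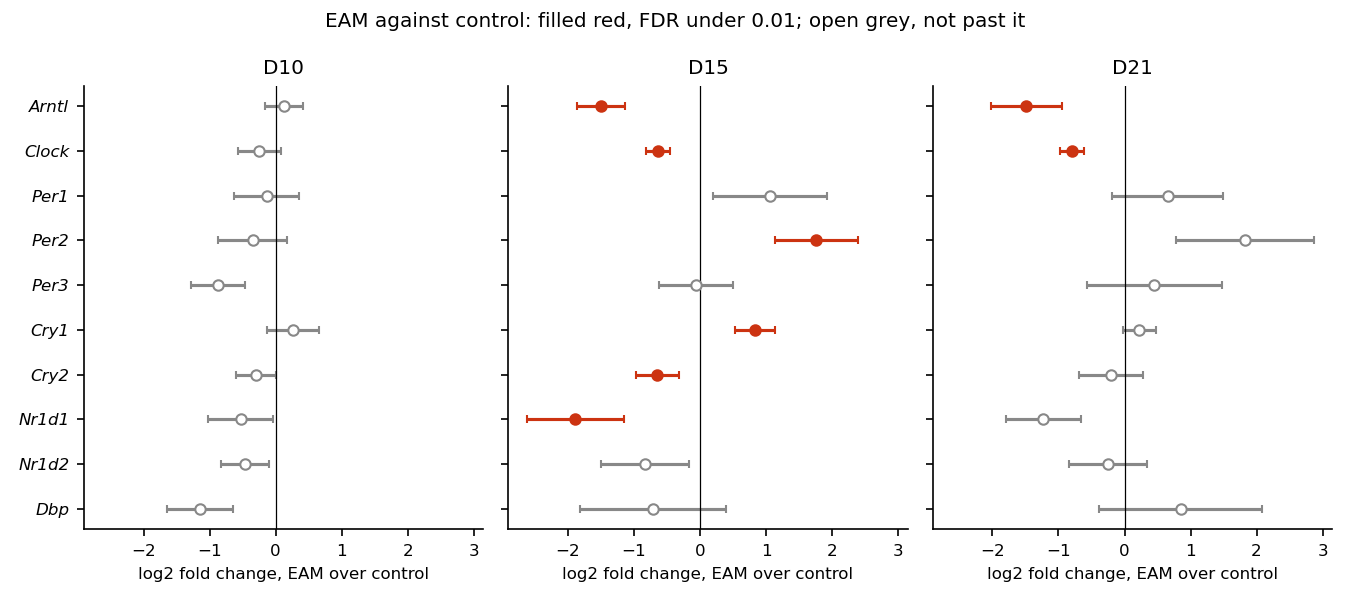
Fitted log2 fold change of EAM over control for each clock gene at D10, D15 and D21, with 95% confidence intervals from edgeR; filled red points pass an FDR of 0.01 over all genes and open grey points do not. At D10 0 genes are filled, at D15 6 and at D21 2.

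At D15, with libraries scaled over all genes, the repressor genes *Per2* and *Cry1* were higher in EAM hearts, and *Arntl*, *Clock*, *Cry2* and *Nr1d1* were lower. With libraries scaled to cardiomyocyte markers, as given after the tissue markers, none of those 4 lower calls was kept, and *Clock* and *Cry2* turned direction, as did *Per3*, *Nr1d2* and *Dbp*, which had not passed. *Per2* rose and *Cry1* rose past an FDR of 0.01, 2 of 10 members, beside 33.2% of 15693 genes. The 4 members that fell compare with 31.1% of genes. With a 2-fold change as well, *Per2* was the 1 member called higher (18.1% of genes) and *Arntl* and *Nr1d1* were the 2 called lower (12.9%). At D15 a large part of all genes passed the test, and the members' counts were near those shares. The median log2 fold change was -0.64 over the 10 members and 0.02 over all genes.

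*Arntl*, whose product is the positive arm of the loop, was at 35.1, 34.5, 36.4 and 39.3 CPM in D15 controls and at 9.94, 17.0, 12.9 and 10.1 CPM in EAM hearts. The highest EAM heart was below the lowest control. Its log2 fold change was -1.502 ± 0.16, which is 2.83-fold lower (adjusted p = 2.80e-05, edgeR). *Clock*, its partner, was at 116, 109, 112 and 118 CPM in controls and at 66.0, 72.6, 82.5 and 64.9 CPM in EAM hearts, and fell by 0.63 ± 0.08 (adjusted p = 7.76e-05). Its change was smaller than that of *Arntl*, and its groups lay as cleanly apart.

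Among the repressors, *Per2* was at 2.71, 5.78, 8.08 and 7.65 CPM in D15 controls and at 17.4, 24.1, 19.7 and 18.7 CPM in EAM hearts. It was 3.39-fold higher, a log2 fold change of 1.76 ± 0.28 (adjusted p = 3.21e-04). *Cry1*, which codes for a strong repressor of ARNTL and CLOCK, was at 15.2, 12.2, 11.9 and 14.2 CPM in controls and at 20.7, 28.5, 24.4 and 19.5 CPM in EAM hearts. Its log2 fold change was 0.84 ± 0.13 (adjusted p = 3.63e-04). *Cry2* moved the other way: it was at 36.1, 41.5, 42.2 and 35.6 CPM in controls and at 23.8, 18.8, 31.8 and 22.6 CPM in EAM hearts. It fell by 0.65 ± 0.14 (adjusted p = 0.00270), and without EAM heart 1 or 4 its adjusted p was 0.0110 or 0.0124.

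*Per1* had higher levels in every D15 EAM heart (103, 87.0, 108 and 105 CPM) than in every control heart (14.7, 47.2, 64.0 and 73.1 CPM), with a log2 fold change of 1.06 ± 0.38. Control heart 1 was far below the other controls, and the adjusted p was 0.03, which missed the limit. Without control heart 1 the log2 fold change was 0.76 and the adjusted p 0.00174. *Per3* was at 7.08 to 14.9 CPM in EAM hearts and 9.06 to 16.3 CPM in controls and showed no difference larger than the spread, with a log2 fold change of -0.06 (95% interval -0.62 to 0.51).

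Of the REV-ERB genes, *Nr1d1* passed at D15 with libraries scaled over all genes and *Nr1d2* did not. With DESeq2 *Nr1d2* and *Per1* passed too (adjusted p = 0.00732 and 0.00797), and *Nr1d2* did in 1 fit of all 24 hearts. Over all genes, 10555 of 15693 passed with DESeq2 and 10403 of 16318 in 1 fit. *Nr1d1* was at 123, 162, 165 and 118 CPM in controls and at 43.4, 14.7, 52.0 and 39.5 CPM in EAM hearts. It fell by 1.89 ± 0.33 (adjusted p = 5.68e-04), and by 1.59 without EAM heart 2. *Nr1d2* was at 104 to 149 CPM in controls and at 88.7, 33.1, 103 and 67.4 CPM in EAM hearts. Its log2 fold change was -0.83 ± 0.30 with an adjusted p of 0.0287, and it turned to 0.42 with cardiomyocyte scaling. *Dbp* was at 21.9, 59.2, 57.0 and 36.9 CPM in controls and at 37.4, 6.55, 37.3 and 22.8 CPM in EAM hearts, and its groups overlapped (log2 fold change -0.71 ± 0.49). EAM heart 2 had the lowest *Per1*, *Per3*, *Cry2*, *Nr1d1*, *Nr1d2* and *Dbp* of its group and the highest *Arntl*, *Per2* and *Cry1*. The 3 members with every EAM heart above every control compare with 34.6% of genes, and the 5 with every EAM heart below every control with 35.9%.

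The tissue itself differed between the groups at D15. Of 8 cardiomyocyte markers 7 fell, and their summed level was 7562 to 19458 CPM in EAM hearts against 27390 to 32268 CPM in controls. The lowest of these sums was that of EAM heart 2. Of 8 leukocyte markers 6 rose, from 323 to 358 CPM in controls to 2524 to 3753 CPM in EAM hearts. All 5 endothelial markers fell (653 to 711 against 944 to 1258 CPM), and 3 of 5 fibroblast markers rose (4321 to 10315 against 1304 to 1560 CPM). The lowest counts of a cardiomyocyte marker in any library were 13151 reads for *Tnni3* and 13274 reads for *Ryr2*, so the labelled tissue matched its markers. The share of reads from mitochondrial genes also did not overlap at D15, at 3.19% to 4.31% with EAM and 6.10% to 7.14% without. The part of these tissue differences in the clock gene results was not tested beyond the scaling that follows. In whole tissue, fewer cells of a type and less RNA per cell cannot be told apart.

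**Figure D3:**
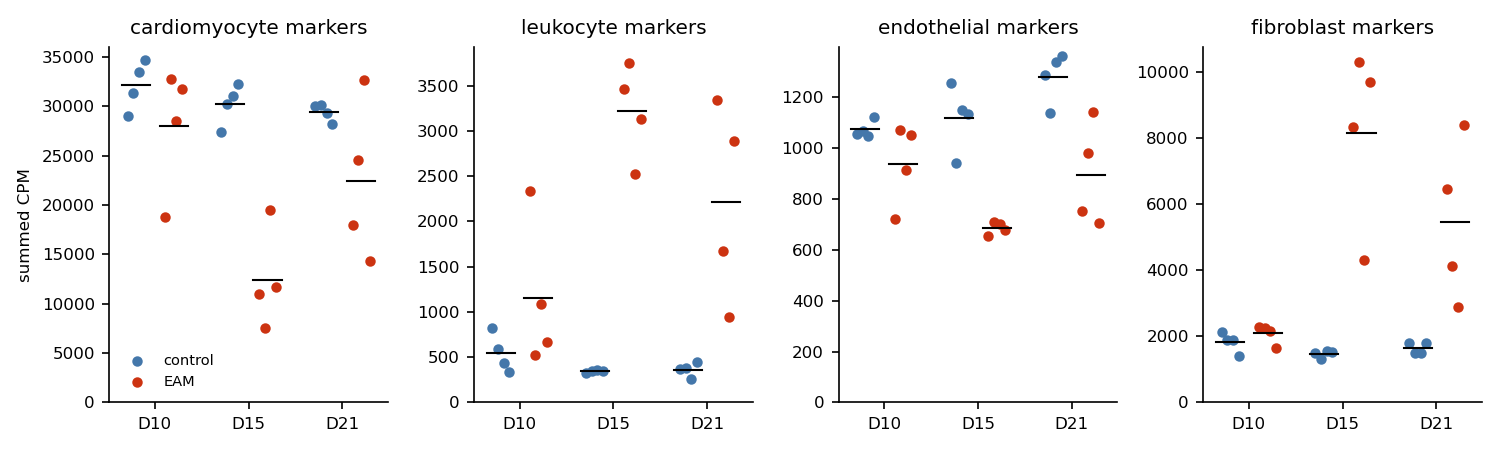
Summed CPM of the cardiomyocyte (8 genes), leukocyte (8), endothelial (5) and fibroblast (5) markers in each heart, by day, with control hearts in blue and EAM hearts in red; points are hearts and bars are group means. The D15 EAM hearts have 7562 to 19458 CPM of cardiomyocyte markers, below the control hearts of every day, the lowest of which has 27390 CPM.

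The direction of several members at D15 depended on what the libraries were scaled to. Scaling to the summed cardiomyocyte markers in place of all genes moved the median log2 fold change of all genes by 1.40 at D15. On that scale *Arntl* was at -0.05 (adjusted p = 0.895) and *Nr1d1* at -0.66 (adjusted p = 0.0335), while *Clock* was at 0.75, *Cry2* at 0.67, *Nr1d2* at 0.42 and *Dbp* at 0.50, and none of these 6 passed. *Per1* (2.46), *Per2* (3.22), *Per3* (1.25) and *Cry1* (2.26) passed an FDR of 0.01 as higher. Of all 15693 genes, 11093 passed on that scale with a median log2 fold change of 1.41, above the value of *Per3*. In the sum *Myh6*, the marker with the highest level, weighed most. Its mean was 11206 CPM in D15 controls and 4206 in EAM hearts, and that of *Tnnt2* was 3668 and 2021. The values on that scale therefore depend on the choice of markers, and no other choice was computed.

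**Figure D4:**
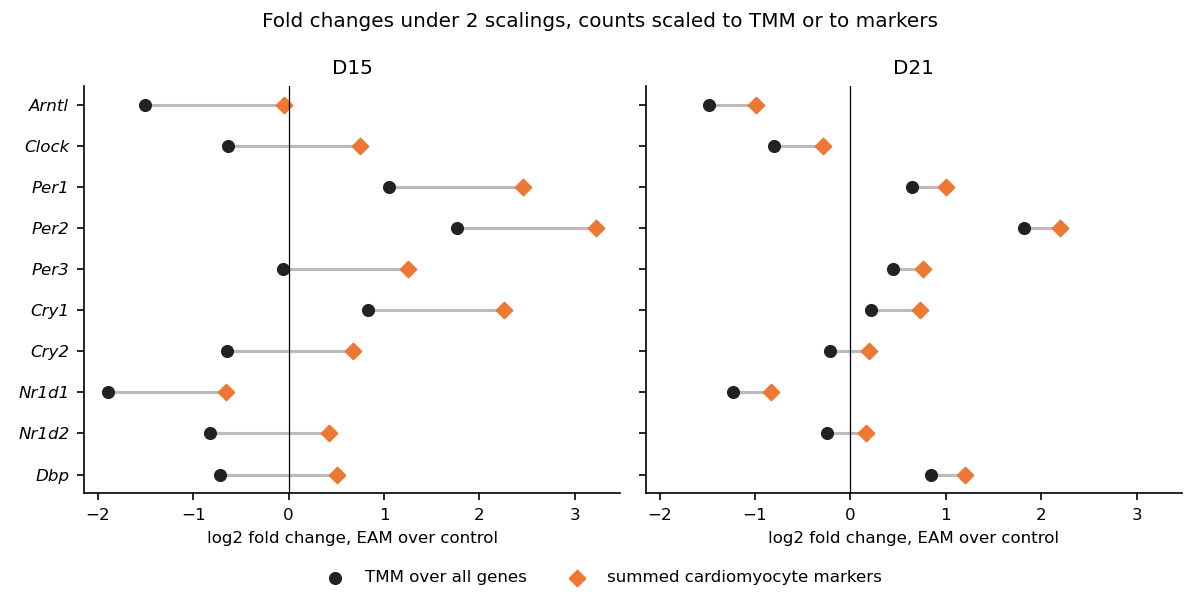
Log2 fold change of each clock gene in EAM over control at D15 and D21, with libraries scaled by TMM over all genes (black circles) or to the summed cardiomyocyte markers (orange diamonds). All 10 genes move to higher values at D15, *Clock* from -0.63 to 0.75, and by less at D21, where *Clock* goes from -0.80 to -0.28.

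A ratio between 2 genes of 1 library does not depend on that scaling. The ratio of *Per2* to *Arntl* CPM, chosen after the values were seen and so given without a test, ranged at D15 over 1.42 to 1.85 with EAM and over 0.0772 to 0.222 without. At D21 it was 0.729 to 2.31 in EAM hearts and 0.0754 to 0.392 in controls, and again the groups did not overlap. At D10 it was 0.329 to 0.546 in EAM hearts and 0.449 to 0.930 in controls, and the groups overlapped. The ratio of *Dbp* to *Arntl*, the other one computed, overlapped at D15 (0.386 to 3.76 with EAM, 0.625 to 1.71 without) and at D21 (1.76 to 13.7 and 0.647 to 3.44). At D10 it did not overlap, with 0.700 to 1.21 in EAM hearts and 1.60 to 2.95 in controls. A ratio shows that 2 genes changed unequally and not which of them changed.

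At D21 *Arntl* and *Clock* were still lower in EAM hearts, and none of the other members passed in edgeR's test of that day. *Per2* and *Nr1d1* passed as well with DESeq2 (adjusted p = 5.65e-04 and 4.65e-05) and in 1 fit of all 24 hearts, and *Nr1d1* with total counts or no filter. Over all genes, 4075 passed with DESeq2, 4781 in 1 fit, 1122 with total counts and 1443 with no filter, in place of 1192. The 2 members that fell compare with 3.1% of 15266 genes, and the 0 that rose with 4.71%. With a 2-fold change as well, *Arntl* was the 1 member called lower (1.16% of genes) and 0 were called higher (4.13%). *Arntl* was at 25.7, 36.5, 39.5 and 38.8 CPM in controls and at 11, 7.84, 16.6 and 14.1 CPM in EAM hearts, and fell by 1.49 ± 0.24 on the log2 scale (adjusted p = 0.00633). *Clock* was at 105, 119, 113 and 114 CPM in controls and at 59.0, 63.8, 65.8 and 67.5 CPM in EAM hearts, and fell by 0.80 ± 0.08 (adjusted p = 0.00264). Both were lower in all 4 EAM hearts than in any control.

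Neither D21 call held in every fit. Leaving out any 1 of the 4 controls, or EAM heart 1 or 2, cost both their call, where over all genes 0 to 43 passed in place of 1192, with adjusted p between 0.0101 and 0.0285, while the log2 fold changes in those fits were between -1.62 and -1.31 for *Arntl* and between -0.84 and -0.75 for *Clock*. Scaled to cardiomyocyte markers, which moved all genes by 0.50 at D21, *Arntl* was at -0.99 (adjusted p = 0.0628) and *Clock* at -0.28 (adjusted p = 0.379). The cardiomyocyte markers summed to 14322 to 32686 CPM in D21 EAM hearts and 28206 to 30146 CPM in controls, and 0 of the 8 passed. They did not move alike, with 1 of the 8 higher in EAM hearts and 7 lower. The mean of *Myh6*, which weighed most, was 11668 CPM in D21 controls and 7052 in EAM hearts. That of *Tnnt2* was 3413 and 3517 CPM, so the shift at D21 depends on which markers weigh most. The leukocyte markers summed to 944 to 3339 CPM in EAM hearts and 258 to 445 CPM in controls. The fibroblast markers did not overlap either, at 2885 to 8389 against 1491 to 1807 CPM, and 2 of the 5 rose (*Col1a1* and *Col1a2*). The endothelial markers summed to 706 to 1143 against 1137 to 1363 CPM, and 0 of 5 passed. The part of these in the *Arntl* and *Clock* results was not tested beyond the scaling above.

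*Per2* was higher in every D21 EAM heart (13.6, 18.1, 26 and 10.3 CPM) than in every control heart (10.1, 3.31, 2.98 and 3.02 CPM). The log2 fold change was 1.82 ± 0.46 and the adjusted p 0.0203. Control heart 1 had more than 3 times the *Per2* of the other controls and almost reached the lowest EAM heart, and without it the log2 fold change was 2.45 (adjusted p = 0.0241). *Nr1d1* was at 203, 143, 144 and 125 CPM in controls and at 50.7, 85.5, 82.9 and 41.4 CPM in EAM hearts. Its groups did not overlap either, with a log2 fold change of -1.23 ± 0.25 and an adjusted p of 0.0105. The 1 member with every EAM heart above the controls compares with 17.8% of genes, and the 3 with every EAM heart below with 18.7%.

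*Dbp* gave the widest spread at D21: 88.3, 23.6, 28.8 and 25.1 CPM in controls and 69.6, 107, 94.8 and 24.8 CPM in EAM hearts. In each group 1 heart lay with the other group. Its log2 fold change was 0.85 ± 0.54 (adjusted p = 0.242), or 1.52 without control heart 1 (adjusted p = 0.0559). *Per1* was at 97.6 CPM in EAM heart 3 and between 37.1 and 42.5 CPM in the other EAM hearts, against 18.0 to 46.5 CPM in controls. *Per3* (0.45 ± 0.45), *Cry1* (0.22 ± 0.11), *Cry2* (-0.21 ± 0.21) and *Nr1d2* (-0.24 ± 0.26) overlapped between the groups. Control heart 1 had 22.1 CPM of *Per3* and 177 CPM of *Nr1d2*, above the other controls (8.26 to 13.0 and 108 to 115 CPM), and without it the log2 fold changes were 0.82 and -0.06.

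The change of the EAM effect from D10 to D15 was tested as a contrast of all 24 hearts. *Arntl* moved down and *Per2* up, and both passed. *Arntl* went from 27.8 ± 4.8 CPM (SD, n = 4) in D10 EAM hearts to 12.5 ± 3.3 in D15 EAM hearts, while its controls went from 25.2 ± 1.5 to 36.3 ± 2.1. The change of its log2 fold change was -1.68 ± 0.27 (adjusted p = 0.00170). *Per2* went from 12.6 ± 2.4 to 20 ± 2.9 CPM in EAM hearts and from 15.9 ± 5.0 to 6.06 ± 2.44 CPM in controls. Its change was 2.06 ± 0.52 (adjusted p = 0.00462). For both genes the controls moved against the EAM hearts, so part of each change lies in the controls.

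The 1 member that moved up compares with 9.37% of 16318 genes, and the 1 that moved down with 16.7%. *Nr1d1* changed by -1.41 ± 0.42 with an adjusted p of 0.0116. Scaled to cardiomyocyte markers, the change was -0.41 for *Arntl* (adjusted p = 0.408) and 3.29 for *Per2* (adjusted p = 0.00702). The *Per2* call was lost without D10 control heart 3, D10 EAM heart 2 or D10 EAM heart 3 (adjusted p between 0.0106 and 0.0115). Without D10 EAM heart 1, 4 members passed (*Cry1* and *Nr1d1* in addition), and 4 passed without D15 EAM heart 3 (*Clock* and *Nr1d1* in addition). Over all genes, 4262 passed with every library, 6764 without the first of these and 5011 without the second. From D15 to D21, 0 of 10 members passed, beside 12.1% of genes, and 2 were under an unadjusted p of 0.05, beside 40.7%. These were *Cry1*, with a change of -0.60 ± 0.21 (adjusted p = 0.0360), and *Dbp*, with 1.59 ± 0.71 (adjusted p = 0.0966).

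Control hearts were compared with each other to see how the clock genes varied without the peptide. *Arntl* was higher and *Per2* lower in later controls, although 0 of 10 members passed in any of the 3 comparisons. *Arntl* was at 24.8, 27.3, 24 and 24.5 CPM in D10 controls, below all 4 D15 controls, with a log2 fold change of 0.54 ± 0.11 from D10 to D15 (adjusted p = 0.0322). *Per2* was at 11.1, 13.1, 22.3 and 17.0 CPM in D10 controls, above all 8 later controls. Its log2 fold change was -1.38 ± 0.39 to D15 (adjusted p = 0.0896) and -1.72 ± 0.40 to D21 (adjusted p = 0.0178). D21 control heart 1, with 25.7 CPM of *Arntl* and 10.1 CPM of *Per2*, lay nearer to the D10 controls than the other D21 controls did. Without it, *Arntl* (0.61, adjusted p = 0.00678) and *Per2* (-2.35, adjusted p = 0.00817) both passed from D10 to D21, where 85 of 15253 genes passed, against 397 with all libraries.

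Of all genes, 0.0914% passed from D10 to D15 in controls, 2.59% from D10 to D21 and 0% from D15 to D21. With each library left out, 0 to 132 genes passed from D10 to D15 in place of 14. From D10 to D21 it was 6 to 447 genes in place of 397. Under an unadjusted p of 0.05 there were 5 members from D10 to D15, beside 16.8% of genes: *Arntl* and *Clock* higher, and *Per2*, *Per3* and *Nr1d2* lower. From D10 to D21 there were 6, the same genes and *Per1* (log2 fold change -1.01 ± 0.40), beside 28.1% of genes. From D15 to D21 there were 0, beside 9.74%. With DESeq2, *Arntl* passed in both comparisons with D10, and *Per2* from D10 to D21. Of all 15311 genes, 358 passed with DESeq2 from D10 to D15 and 1135 from D10 to D21.

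Within groups the hearts gave a test of whether *Arntl* varied against the other members, since group means were subtracted from log2 CPM first. *Dbp* had the most negative correlation with *Arntl* over the 24 hearts, with Pearson's r = -0.52 (permutation p = 0.0646) and Spearman's rho = -0.45 (permutation p = 0.0668). The adjusted p over the 9 members was 0.291 for r and 0.301 for rho. *Clock* had the most positive one, with r = 0.46 (permutation p = 0.0315, adjusted 0.283) and rho = 0.69 (permutation p = 0.00309, adjusted 0.0278). By r, 0 of 9 members passed an adjusted p of 0.05, and by rho *Clock* did. The other 7 members had r between -0.40 and 0.31.

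Without the 2 hearts farthest from the median (D21 EAM heart 2 and D15 EAM heart 2), r was -0.22 for *Dbp* and 0.63 for *Clock* (adjusted permutation p = 0.724 and 0.0723). The negative relation of *Dbp* therefore rested in part on those hearts. In the 12 controls r was -0.74 for *Dbp*, -0.72 for *Nr1d1*, -0.71 for *Nr1d2* and -0.78 for *Cry2*, with adjusted permutation p between 0.0719 and 0.210. The control values of *Dbp* and *Nr1d2* rested largely on D21 control heart 1, that of *Nr1d1* in part and that of *Cry2* less so. In the 11 controls without it, r was -0.14 for *Dbp*, -0.41 for *Nr1d1*, 0.07 for *Nr1d2* and -0.61 for *Cry2*, with adjusted permutation p between 0.606 and 0.961. Over the 23 hearts without it, r was -0.41 for *Dbp* and 0.43 for *Clock*. In the 12 EAM hearts r was -0.45 for *Dbp* and 0.45 for *Clock*. In the 20 libraries with the commoner library code r was -0.59 for *Dbp* and 0.54 for *Clock* (adjusted permutation p = 0.235 for both), and the 4 libraries with the other code are too few for a value of their own.

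**Figure D5:**
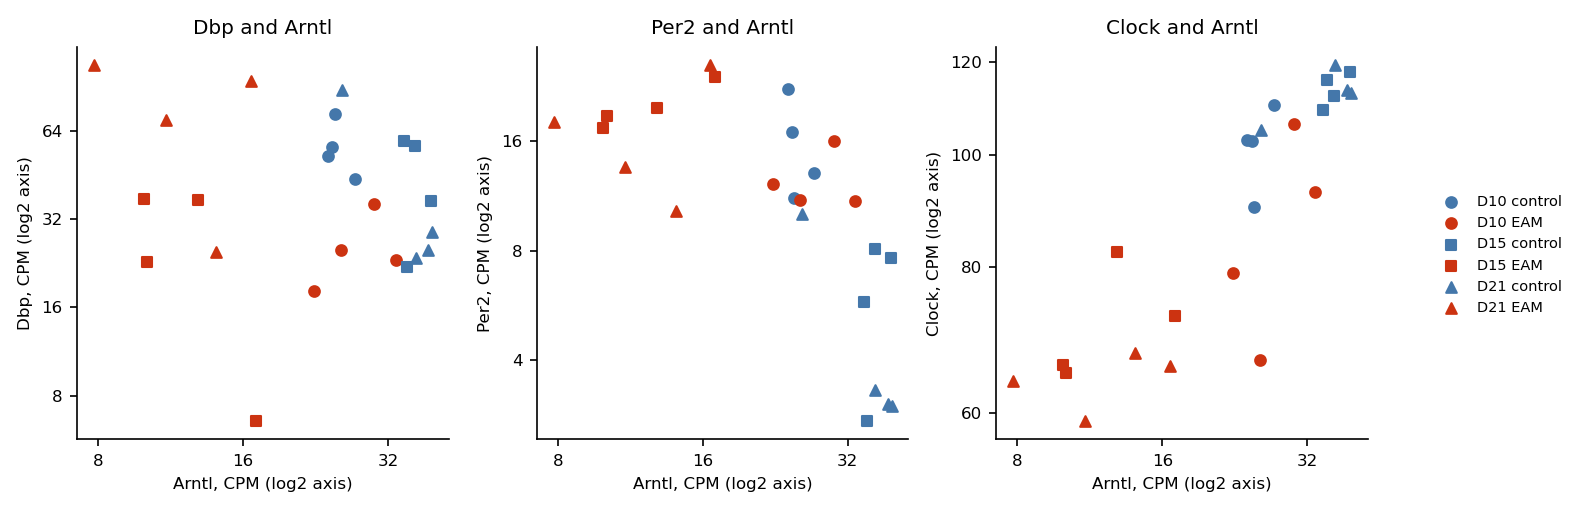
CPM of *Dbp*, *Per2* and *Clock* against CPM of *Arntl* in each of the 24 hearts on log2 axes; circles, squares and triangles are D10, D15 and D21, controls blue and EAM red. *Clock* and *Arntl* are both low in D15 and D21 EAM hearts, and within the 6 groups r is 0.46 for *Clock* and -0.52 for *Dbp*.

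Among 14279 other genes that averaged 1 CPM or more, the one with the highest r with *Arntl* within groups was *Npas2*, with r = 0.71 over 24 hearts. NPAS2 is the close relative of CLOCK that can pair with ARNTL in its place. *Npepps* (0.67), *Srpk1* (0.67), *Clic3* (0.67) and *Cep97* (0.65) followed. Among the lowest r were those of *Slc14a1* (-0.73), *Gm7879* (-0.70), *Rpp38* (-0.65) and *Gm8129* (-0.64). *Clock* ranked 224th from the top and *Dbp* 58th from the bottom of the 14279. These values share libraries and depth and are given as a description.

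The wider clock list held 23 further genes of the loop, its kinases, its ubiquitin ligases and its output factors. At D15, on the scale over all genes, 3 of 23 rose and 8 fell, with a median log2 fold change of -0.16, beside 33.2% and 31.1% of all genes. *Nfil3*, a repressor that competes with DBP for D-boxes, had the largest rise, 1.75 ± 0.15. *Bhlhe40*, a repressor at E-boxes, rose by 0.98 ± 0.13. Among those that fell were *Hlf* (-1.26 ± 0.33), a relative of *Dbp*, and *Rorb* (-1.17 ± 0.13), whose product acts on RREs in the opposite sense to REV-ERB. *Npas2* fell by 0.86 ± 0.22.

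At D10, 0 of the 22 wider clock genes tested passed. With every EAM heart above every control there was 1 of the 22, *Npas2* (0.71 ± 0.20), beside 4.41% of all genes. With every EAM heart below there were 4, beside 3.75%: *Hlf* (-0.61), *Tef* (-0.48), *Usp2* (-0.32) and *Btrc* (-0.20). None of these 5 passed, with adjusted p of 0.328 to 0.344 in edgeR. At D21, 0 of 23 rose and 2 fell, beside 4.71% and 3.1% of all genes, among them *Gsk3b* (-0.52 ± 0.08), a kinase that acts on several clock proteins. No gene of any kind passed at D21 without control heart 1, 2 or 3. The change of the EAM effect from D10 to D15 passed for 5 of 23, 2 up and 3 down, beside 9.37% and 16.7% of all genes. Among them *Npas2* (-1.62 ± 0.37) and *Btrc* (-0.58 ± 0.15) moved down, and *Bhlhe40* (0.76 ± 0.22) and *Csnk1d* (0.34 ± 0.07) moved up. Mean *Npas2* went from 4.26 to 7.94 CPM in controls and from 7.05 to 4.24 CPM in EAM hearts. Part of its change therefore lies in the controls. Between controls *Nampt* fell by 0.46 ± 0.08 from D10 to D21, the 1 of 23 that passed in any of those comparisons, beside 2.59% of all genes in that one.

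Genes that respond to glucocorticoids were listed because *Per1* does too. At D15, on the scale over all genes, 3 of 8 rose and 1 fell, beside 33.2% and 31.1% of all genes: *Mt2* rose by 3.94 ± 0.27 and *Fkbp5* by 1.87 ± 0.29, while *Pdk4* fell by 1.86 ± 0.44. The fourth was *Mt1*, and the other 4 (*Tsc22d3*, *Zbtb16*, *Sgk1* and *Cdkn1a*) did not pass. At D21 the same 3 rose and *Pdk4* fell again, beside 4.71% and 3.1% of all genes, at 4.07 ± 0.54 for *Mt2*, 1.52 ± 0.30 for *Fkbp5* and -1.48 ± 0.25 for *Pdk4*. These D21 calls were likewise lost without control heart 1, 2 or 3. At D10 0 of 8 passed, with log2 fold changes between -0.08 and 1.53. Between controls 3 of 8 fell from D10 to D21, where 2.59% of all genes passed in either direction, *Mt2* by 2.59 ± 0.37, *Zbtb16* by 1.27 ± 0.20 and *Mt1* by 1.12 ± 0.17. *Mt1* and *Mt2* also respond to metals and inflammation and *Pdk4* to fuel supply, so the list is not specific to the hormone. Neither this list nor the wider clock list was recomputed with cardiomyocyte scaling.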

How the data were processed

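Sequencing gave pairs of 75 bp reads. Per the labels and methods, the authors mapped them with HISAT2 2.0.4 (GRCm38), took out duplicates with Picard and used featureCounts to assign reads to Ensembl genes. The counts they deposited are raw. One file per sample and one joint table of the 24 samples are held, with 0 differing cells. Groups were taken from the sample labels, and each sample was treated as a separate heart. Of 41480 features, 92 are spike-in controls with 0 reads and were left out. Gene positions and exon lengths are those of GENCODE M21.

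The tests used edgeR 4.0.16 under R 4.3.3 (TMM, quasi-likelihood test). A gene was kept if 4 or more samples of the fit had 10 or more reads, and p-values were adjusted by Benjamini-Hochberg over all genes kept. A gene passed under an FDR of 0.01. A 2-fold limit is named where used. EAM and control were compared on the 8 samples of each day, the change of the effect on all 24 samples and controls on the 12 control samples. The log2 CPM values used in the correlations have a prior count of 1. Permutation tests were two-sided, shuffled hearts within groups and used 100000 resamples in Python 3.11.15 with numpy 2.4.6. The p-values of correlations were adjusted over the 9 pairs. The tests were tried on simulated data.

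The members and lists were chosen with earlier results of these data known. Named are the 10 members and at most 6 wider clock genes past the limit per comparison. Also named are the glucocorticoid-responsive genes, with values for up to 3 per comparison, and the 5 highest and 5 lowest correlations with Arntl. Some genes that this rule names are not reported here. Wider clock genes named at D10 were chosen after their values were seen. Alternatives were DESeq2 1.42.0, limma-voom (limma 3.58.1), an earlier form of the edgeR test, other scalings, filters and limits, a replicate block, 1 fit of all samples, and each library left out. Intervals cover the spread between these mice only.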

Additional observations from a re-analysis of the deposited data

Results flagged for a closer look

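In 5 of 60 sets of 4 hearts (10 members in 6 groups) 1 heart lay further from the rest than Dixon's 95% limit, where about 3 are to be expected by chance. D21 control heart 1 had the highest *Dbp* (88.3 CPM), *Nr1d2* (177 CPM) and *Per2* (10.1 CPM) of its group, and these 3 are values of 1 library. *Per1* was at 97.6 CPM in D21 EAM heart 3. *Per3* was at 7.08 CPM in D15 EAM heart 2. What set these hearts apart was not tested.

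The EAM effect differed between D10 and D15 for 2 members in the edgeR contrast of all 24 hearts. Of all genes, 9.37% moved up and 16.7% down in that contrast. The EAM effect changed by -1.68 on the log2 scale for *Arntl* (adjusted p = 0.00170) and by 2.06 for *Per2* (adjusted p = 0.00462). The *Per2* call was lost without D10 control heart 3, D10 EAM heart 2 or D10 EAM heart 3. The *Arntl* call was lost with cardiomyocyte scaling. The hour of collection, the share of cardiomyocytes and the EAM effect cannot be told apart here.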

How the results depend on the processing

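Of the recounts of members past a limit, 195 stayed within 1.5 times of the value reported and 31 moved. This compares counts and not which members passed, and recounts of 0 where 0 was reported are among the 195. At D15 between 5 and 7 of 10 members passed with each library left out (6 with all), and 3 passed with a 2-fold limit. Cardiomyocyte scaling gave 4, within 1.5 times of 6, yet the 4 lower calls were lost and *Per1* and *Per3* were new. DESeq2 gave 8 members and 1 fit of all 24 samples gave 7. Over all genes 10100 passed, 8689 to 9905 with each library left out, 10555 with DESeq2, 10403 in 1 fit and 11093 with cardiomyocyte scaling. At D21, where 2 passed, the count was 0 to 3 with each library left out, 4 at an FDR of 0.05, with DESeq2 or in 1 fit of all 24 samples, 1 with a 2-fold limit and 0 with cardiomyocyte scaling. The calls over all genes moved too, from 1192 to between 0 and 4084 with each library left out, 4075 with DESeq2, 4781 in 1 fit and 33 with cardiomyocyte scaling. At D10 DESeq2 gave 2 in place of 0 (75 in place of 0 over all genes). For the change from D10 to D15 (2 members) the count was 1 to 4 with each library left out (1 without D10 control heart 3 or D10 EAM heart 2, 4 without D10 EAM heart 1 or D15 EAM heart 3) and 5 at an FDR of 0.05 or with cardiomyocyte scaling. Of all 16318 genes 4262 passed for that change, and 4632 with cardiomyocyte scaling, which moved their median by 1.17. With each library left out 2537 to 6764 genes passed. For the change from D15 to D21 an FDR of 0.05 gave 1 in place of 0. Between controls, D15 against D10 gave 1 at an FDR of 0.05 and with DESeq2 and 0 to 1 with each library left out (1 without D21 control heart 1). Over all genes 358 passed there with DESeq2 and 0 to 132 with each library left out, in place of 14. D21 against D10 gave 2 at an FDR of 0.05, with DESeq2 and with no filter, and 0 to 2 with each library left out (2 without D21 control heart 1), in place of 0. Over all genes 1135 passed there with DESeq2, 580 with no filter and 6 to 447 with each library left out, in place of 397. In each case without another value beside it, the cause was not tested. By correlation with *Arntl*, 5 of 9 members passed when group means were kept, which brings in the differences between groups, 3 with cardiomyocyte scaling, 1 with Spearman's rho and 0 to 1 with each library left out (1 without D10 EAM heart 1). The 20 libraries with 1 code and the controls without D21 control heart 1, alternatives chosen after seeing the data, gave 0 each.

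Signs turned with cardiomyocyte scaling for *Clock* (0.00714) and *Per1* (0.13) at D10, for *Clock* (0.75), *Per3* (1.25), *Cry2* (0.67), *Nr1d2* (0.42) and *Dbp* (0.50) at D15, and for *Cry2* (0.20) and *Nr1d2* (0.16) at D21. *Per3* at D15, near 0, also turned with total counts (0.0884), and was between -0.198 and 0.170 with each library left out, above 0 without control heart 3 (0.0560) and without EAM heart 2.

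Replicate numbers are shared by the groups, and the labels do not say what they mark. Same-numbered hearts deviated together with a correlation over 0.1 in 3 of 4 pairs at D21, 2 of 4 at D10 and 0 of 4 at D15, so they were not taken as pairs. With the number as a block, 6 members passed at D15, 2 at D21 and 2 for the change from D10 to D15, as without it, and no call of a member changed. In the comparisons between days and between controls, fold changes were recomputed only for members past an FDR of 0.01 and 0.05, respectively.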
